A study of Homo sapiens with 4 samples.

Results

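The region described here is the RNA of the light-strand files that lies opposite ND5, a mitochondrial gene for a core subunit of respiratory complex I. It is defined by position: 1812 of the 16500 positions of each light-strand file, from 2422 to 4233 in that file's own numbering, which is 12336 to 14147 in the numbering of the heavy-strand files. A light-strand position and its heavy-strand partner add up to 16569. The region begins at the first base after ND6 (1897 to 2421 in the light-strand files) and runs along the whole coding sequence of ND5, an intron-free gene, in the antisense direction. It holds 639 A or C positions and 1173 G or T positions. Mean mismatch fractions above 0.3 led to 5 positions being left out, all of them high in both strands' files in each library, so that 636 A or C and 1171 G or T positions remained.

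The mitochondria came from an established line derived from human embryonic kidney, which the sample labels give as HEK 293 and the series text as HEK-293T, and the isolated organelles were treated with 1% dimethyl sulfate (DMS) for 5 min at 37 °C. There were 4 libraries: wild type, replicates 1 and 2, and LRPPRC knockout, replicates 1 and 2, all DMS-treated. DMS methylates unpaired adenine and cytosine on their base-pairing face, and TGIRT-III, the reverse transcriptase used, writes a mismatch where it meets the methylated base. An untreated library was not analysed here. The labels call the libraries biological replicates and do not say whether the knockout cells were 1 clone. Loss of LRPPRC RNA, which comes from a nuclear gene, was not examined in these mitochondrial tables.

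Both strands of human mitochondrial DNA are transcribed into long precursor RNAs. The light-strand transcript carries ND6 mRNA and several tRNAs, and most of the rest of it is antisense to the mRNAs of the heavy strand and is known to be turned over rapidly by the mitochondrial degradosome. LRPPRC is an RNA-binding protein that works with SLIRP, stabilises mitochondrial mRNAs and keeps them open for polyadenylation and translation. In a light-strand file the letters are those of the light-strand transcript, so mismatches at A and C are read as DMS marks on RNA antisense to ND5. Mismatches at G and T stand opposite A and C of ND5 mRNA and are read as coming from reads of the sense strand, together with any reverse transcription or sequencing error at those bases. How much error they hold was not tested. The ratio of the mean mismatch fraction at A and C to that at G and T is formed within 1 library and needs no scaling between libraries.

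The sequences below mark the places where the results turn, written 5′ to 3′ as in the light-strand files. The first is the junction with ND6, light-strand positions 2407 to 2436, with the region in capitals. The next 3 are the central 30 nt of 50-nt windows, with the A and C positions in capitals: the window next to ND6, the window with the lowest wild-type ratio and the window with the highest.
Junction with ND6, 2407 to 2436: gctcgggggaataggTTATGTGATTAGGAG
Window next to ND6, 2432 to 2461: AggAgtAgggttAggAtgAgtgggAAgAAg
Window of the lowest wild-type ratio, 3582 to 3611: ggAggAggCCtAgtAgtggggtgAggCttg
Window of the highest wild-type ratio, 4182 to 4211: ggggAAttAgggAAgtCAgggttAgggtgg
All of them are rich in G, as is the region as a whole. G made up 34.3% of its bases, T 30.4%, A 24.7% and C 10.6%, against 31.3%, 31.0%, 24.7% and 13.1% over the light-strand file. The 500 nt next to ND6 had the fewest C, at 7.2%, and the most G, at 37.2%. The run GGGG, which was searched with overlapping matches, occurred 25 times in the region: 11 times in the 500 nt next to ND6, 0 times in the following 500 nt, 7 times in the next 500 nt and 6 times in the last 312 nt, with 1 run crossing a border between these stretches. At least 1 GGGG lay in 30.6% of the region's 36 windows and in 34.7% of the 329 windows of the whole file, and for GGG the shares were 69.4% and 70.5%. On the other strand GGG occurred 2 times and GGGG 0 times in the region, and AGGGGA occurred 2 times on the light strand and 0 times on the other.

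In wild type, the level at A and C exceeded that at G and T most strongly next to ND6 and at the far end of the region. In between it fell below the level at G and T in some windows. In the knockout the level at A and C exceeded that at G and T along the whole region. In the 500 nt next to ND6 (positions 2422 to 2921; heavy-strand numbering 13648 to 14147), mean mismatches at A and C were 2.90% and 2.91% in the wild-type libraries and 2.67% and 2.68% in the knockout libraries. Mismatches at G and T there were 0.914% and 0.888% in wild type against 0.591% and 0.594% in the knockout. The A and C level was therefore 3.17 and 3.28 times the G and T level in wild type and 4.52 and 4.51 times in the knockout. The wild-type and knockout libraries did not overlap in any of these measures. On the log2 scale the knockout ratio was higher by 0.49, by 0.22 for A over T alone and by 0.31 over the first 250 nt.

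Over the remaining 1312 nt (positions 2922 to 4233), A and C were at 2.34% and 2.28% in wild type against 2.37% and 2.36% in the knockout. G and T were at 1.21% and 1.26% in wild type against 0.572% and 0.580% in the knockout. Thus the 2 groups were nearly level at A and C and lay far apart at G and T. The log2 ratio was 0.95 and 0.85 in wild type against 2.05 and 2.02 in the knockout, a difference of 1.14.

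The log2 ratio next to ND6 exceeded that of the rest by 0.71 and 0.86 in the wild-type libraries, a mean of 0.79 ± 0.11 (SD, n = 2). In the knockout libraries it exceeded it by 0.13 and 0.15, a mean of 0.14 ± 0.01 (SD, n = 2). The contrast was smaller in the knockout by 0.65, beyond the spread between libraries, with a 2-sided exact permutation p of 0.333, which is the smallest that 2 libraries against 2 can give. The same p of 0.333 holds for every comparison of a single value between the groups below whose libraries do not overlap.

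The rest of the region was not uniform, so it was split further. In the second stretch of 500 nt (2922 to 3421) the log2 ratio was 1.04 and 0.94 in wild type against 2.08 and 2.04 in the knockout. In the third (3422 to 3921) it was 0.40 and 0.23 in wild type against 1.96 and 1.95 in the knockout. In the last 312 nt (3922 to 4233) it was 1.78 and 1.85 in wild type against 2.14 and 2.13 in the knockout. The wild-type ratio thus fell over 3 stretches and came back, in the last, to above its value next to ND6. Set against that last stretch alone, the 500 nt next to ND6 had a lower ratio in wild type, by −0.12 on the log2 scale. The knockout ratios lay between 1.95 and 2.18 in all 4 stretches.

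**Figure D1:**
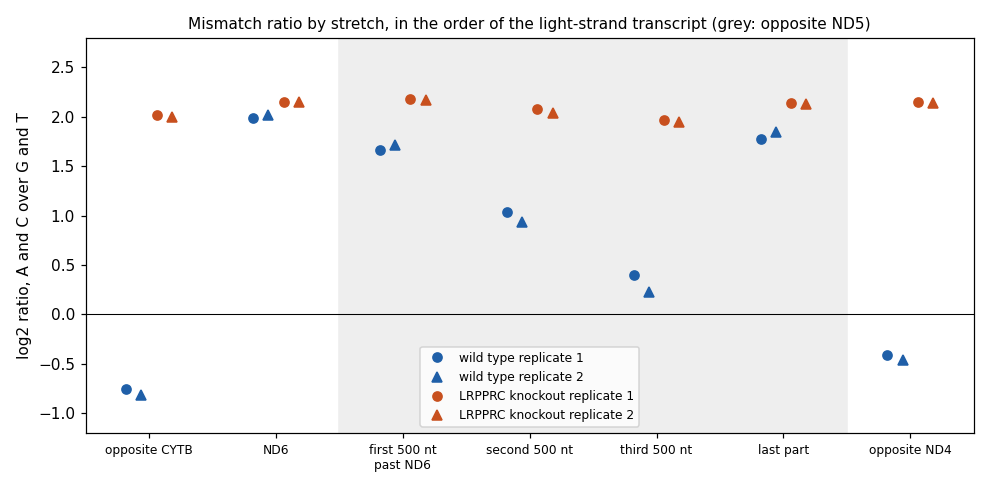
Log2 ratio of mean mismatches at A and C to mean mismatches at G and T (vertical axis) in each library, for the 4 stretches opposite ND5 (grey) and for ND6 and the light-strand RNA opposite CYTB and ND4; each symbol is 1 library. Wild type falls to 0.40 and 0.23 in the third stretch and returns to 1.78 and 1.85 in the last, and the knockout libraries lie between 1.95 and 2.18 in all 4 stretches.

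The bases behind the ratio moved differently. In the third stretch, G was at 1.66% and 1.81% in wild type against 0.464% and 0.483% in the knockout, and T at 1.27% and 1.34% against 0.634% and 0.618%. In the 500 nt next to ND6, G was at 0.848% and 0.814% against 0.415% and 0.432%, and T at 0.993% and 0.975% against 0.799% and 0.786%. G pairs with the C of ND5 mRNA and T with its A, and G showed the larger difference between the groups in both stretches. Of the antisense bases, A in the third stretch was lower in wild type, at 2.33% and 2.24%, than in the knockout, at 2.60% and 2.59%. A next to ND6 was higher in wild type, at 3.12% and 3.14%, than in the knockout, at 2.94% and 2.94%. C was also higher in wild type next to ND6, at 2.11% and 2.11% against 1.74% and 1.77%, and in the third stretch, at 1.27% and 1.21% against 1.28% and 1.27%, it differed by less than the spread between the wild-type libraries.

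ND6 itself, whose mRNA the light strand encodes, had log2 ratios of 1.99 and 2.02 in wild type against 2.16 and 2.15 in the knockout. The 500 nt that follow it lay below ND6 by 0.32 and 0.31 in wild type, and within 0.02 of it in both knockout libraries. Light-strand RNA opposite CYTB, the cytochrome b gene on the other side of ND6, had log2 ratios of −0.75 and −0.81 in wild type against 2.01 and 2.00 in the knockout. Opposite ND4, another complex I gene further along the light-strand transcript, they were −0.41 and −0.47 in wild type against 2.15 and 2.14 in the knockout. In wild type the rest of the ND5 region exceeded the RNA opposite ND4 by 1.36 and 1.32, and in the knockout it lay below it by −0.10 and −0.12. That contrast was smaller in the knockout by 1.45, beyond the spread between libraries. The short stretch opposite the tRNA gene TRNL2, which directly follows the region, had ratios of 1.89 and 1.95 in wild type against 1.75 and 1.77 in the knockout. Knockout mismatches at G and T were 0.577% and 0.584% over the region and 0.656% and 0.657% in ND6. They were 0.575% and 0.580% opposite CYTB and 0.555% and 0.560% opposite ND4. How much of this similar level is sense signal and how much is error was not tested, so the knockout ratios do not measure the balance of the strands.

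The course was then followed in 36 windows of 50 nt, counted from the first base after ND6, with 0.001 added to both mean fractions before the log2 ratio was taken. Next to ND6 (2422 to 2471) the ratio was 1.97 and 2.09 in wild type against 2.19 and 2.19 in the knockout. The 2 windows that begin 1000 and 1050 nt past ND6 had wild-type ratios of 0.13 and −0.06, and of −0.11 and −0.33. The lowest window, 1150 nt past ND6 (3572 to 3621), stood at −0.44 and −0.67 in wild type against 1.60 and 1.57 in the knockout. Its sequence is the third of those printed above, and A and C in it were at 1.06% and 0.959% in wild type while G and T were at 1.47% and 1.59%. In this window G and T thus had the higher level in wild type, and A and C in the knockout.

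The return was abrupt compared with the decline. The window of positions 3722 to 3771 had wild-type ratios of 0.03 and −0.13, and the next one, 3772 to 3821, had 1.23 and 1.19. Across that border G and T fell from 1.36% and 1.48% to 0.825% and 0.832% in wild type, and A and C were at 1.39% and 1.34% before it and 2.08% and 2.02% after it. In the knockout G and T were at 0.456% and 0.457% before the border and 0.494% and 0.493% after it, and A and C went from 1.37% and 1.35% to 2.06% and 2.05%. The step in G and T was thus seen in wild type, while the step in A and C was present in both groups. The border was picked after the values were seen and carries no test. By comparison the wild-type decline from the first windows to the lowest took more than 1000 nt.

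**Figure D2:**
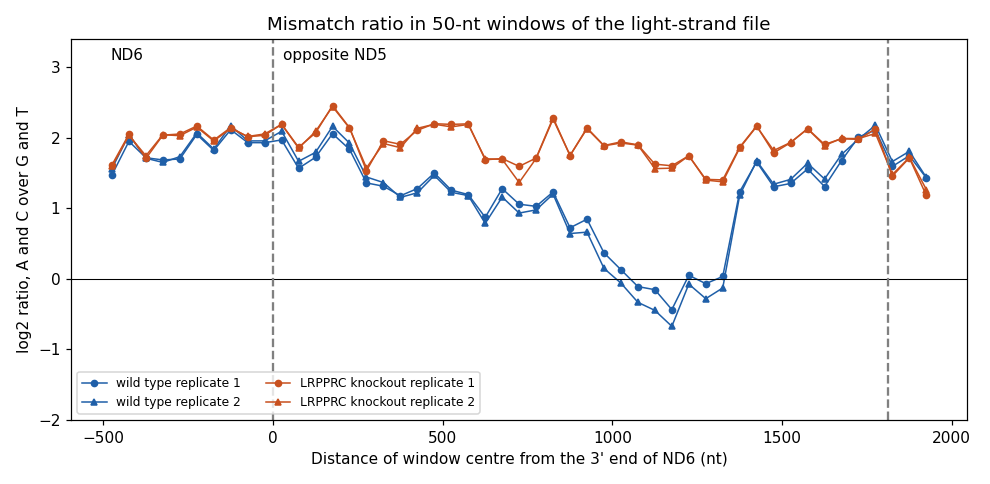
Log2 ratio of mean mismatches at A and C to those at G and T, each with 0.001 added as a fraction (vertical axis), in 50-nt windows by distance from the 3′ end of ND6 (horizontal axis, nt); lines are the 4 libraries and dashed lines bound the region. Wild type declines past ND6 to −0.44 and −0.67 in the window that starts 1150 nt past it and rises sharply 1350 nt past it, and within the region the lowest knockout ratio is 1.37.

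Ratios below 0 occurred in 4 windows of wild-type replicate 1 and in 7 of wild-type replicate 2, all of them between positions 3422 and 3771, and in 0 windows of either knockout library. The window of 3672 to 3721 was among them in both wild-type libraries. It holds the G at 3688, described below, at 18.6% and 19.3% in wild type, among 27 G or T positions. The counts were not taken without that position. By the mean of both libraries, 6 of the region's 36 windows (16.7%) were below 0 in wild type, against 198 of 329 (60.2%) over the light-strand file. In the knockout mean 0 of 36 were below 0, against 57 of 329 over the file. The median window ratio was 1.23 in wild type against 1.91 in the knockout in the region, and −0.60 and 1.64 over the file. Opposite ND5 the level at A and C thus exceeded that at G and T in most windows in wild type, unlike in most windows of the light-strand file. The single division that best separated higher from lower windows fell 550 nt past ND6 in both wild-type libraries and 600 nt past it in both knockout libraries. In wild type the window means before and after it were 1.55 and 0.89 in replicate 1 and 1.59 and 0.81 in replicate 2, and in the knockout 2.07 and 1.84, and 2.06 and 1.82.

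The ratio was higher in the knockout in 34 of 36 windows and lower in 0, by limma with Benjamini-Hochberg adjusted p under 0.05 over all 329 windows. At an unadjusted p under 0.05 the counts were the same, 34 and 0, and were not taken over the file. Some lower calls appeared under other settings: 29 windows were higher and 2 lower for A over T alone, and 31 higher and 1 lower with a pseudocount of 0.01. Over the file these 2 settings gave 237 higher and 16 lower of 328, and 256 higher and 20 lower of 329. With the main settings 78.7% of the file's windows were called higher and 3.65% lower, so that a high share of higher calls was the general state of these libraries. The size of the change set the windows apart more than the call. Its median was 0.33 over the 10 windows next to ND6, 0.97 in the second stretch, 1.67 in the third and 0.40 in the last, against 0.68 over the region and 1.34 over the file. With a pseudocount of 0.01 the medians were 0.10 next to ND6, 0.30 over the region and 0.79 over the file. The largest changes were 2.14 (SE 0.09, limma adjusted p = 1.11e-05) at 3572 to 3621, 2.12 at 3472 to 3521 and 1.90 at 3422 to 3471. The 2 windows that were not called are the last of the region: 4122 to 4171, with a change of −0.01 (limma adjusted p = 0.734), and 4172 to 4221, with −0.05 (limma adjusted p = 0.320). The window at 4172 also had the highest wild-type ratio, 2.11 and 2.18, against 2.12 and 2.06 in the knockout, so that the groups overlapped there.

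**Figure D3:**
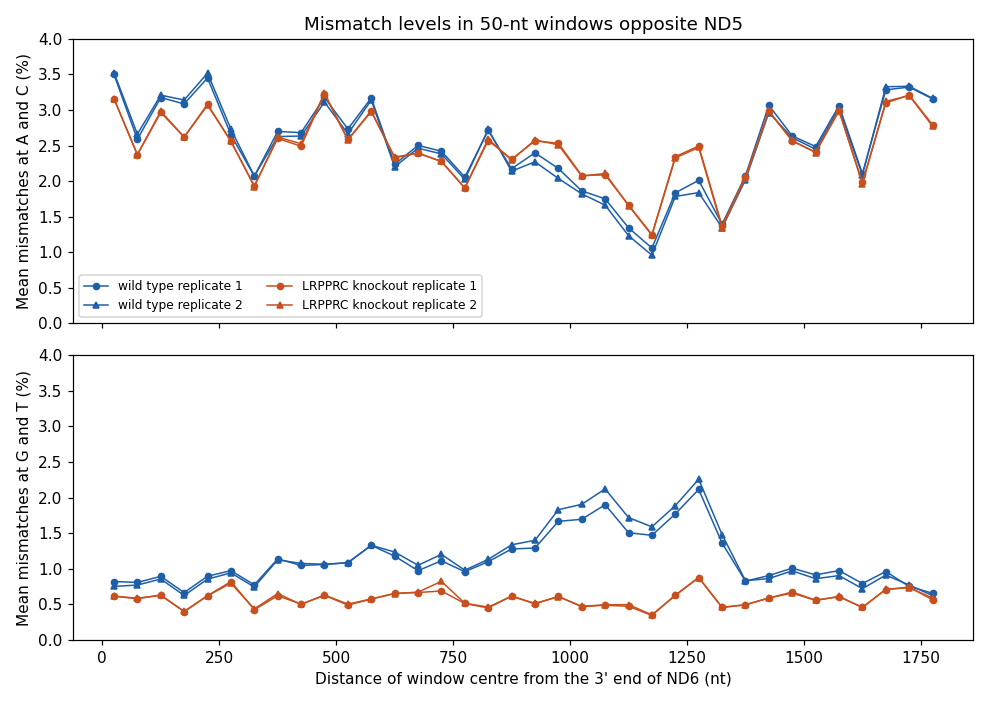
Mean mismatches in percent at A and C (top, antisense RNA) and at G and T (bottom, sense-strand reads) in the 50-nt windows opposite ND5, by distance from the 3′ end of ND6 (nt); lines are the 4 libraries. Wild type lies above the knockout at G and T in 36 of 36 windows, and the A and C lines of the groups cross, with wild type lower in 12 windows.

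The level at A and C differed far less. Across windows it ran from 1.01% to 3.51% in the wild-type mean and from 1.24% to 3.23% in the knockout mean, and the minimum of both lay in the window at 3572. At G and T the wild-type mean ran from 0.639% to 2.19% and the knockout mean from 0.348% to 0.877%, with wild type higher in 36 of 36 windows. Both upper values came from the window at 3672. It holds the G at 3688, which stood at 18.6% and 19.3% in wild type against 10.6% and 10.4% in the knockout. A and C were lower in wild type in 12 windows and higher in 24. Over the 36 windows the wild-type level at G and T and the log2 ratio of A and C in wild type over knockout had a Pearson r of −0.894. This is a description across neighbouring windows that share libraries, and both quantities include the wild-type libraries. Mismatch fractions are shares of all reads at a position in the file, so a larger share of sense reads lowers the A and C fraction by arithmetic. Fewer antisense molecules, more sense molecules and a different DMS reactivity cannot be told apart by these fractions.

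At single positions, the direction at A and C depended on the scale. Without centring, limma called 107 of the 631 tested A and C positions higher in the knockout and 171 lower, where 46.2% of all tested A and C positions of the file were called higher and 14.3% lower. Next to ND6 there were 3 higher and 73 lower of 155. In the third stretch the split was 66 higher and 18 lower of 189, in the second 35 and 44 of 178, and in the last 3 and 36 of 109. The stretch of the lowest wild-type ratio was thus the one where A and C rose most often, and the 2 ends of the region were where they fell most often. When each library was centred on its median A and C position, a shift of 0.54 on the log2 scale between the groups, 0 of 631 positions were called higher and 585 lower, with a background of 24.6% higher and 50.7% lower. At an unadjusted p under 0.05, limma with centring gave 1 higher and 588 lower, counts that were not taken over the file. By limma after quantile normalization in place of centring, 21 were higher and 501 lower. Over the file that setting gave 1669 higher and 2402 lower of 5544. The median change in the region was −0.04 without centring and −0.58 with it, against 0.22 and −0.32 over the file.

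**Figure D4:**
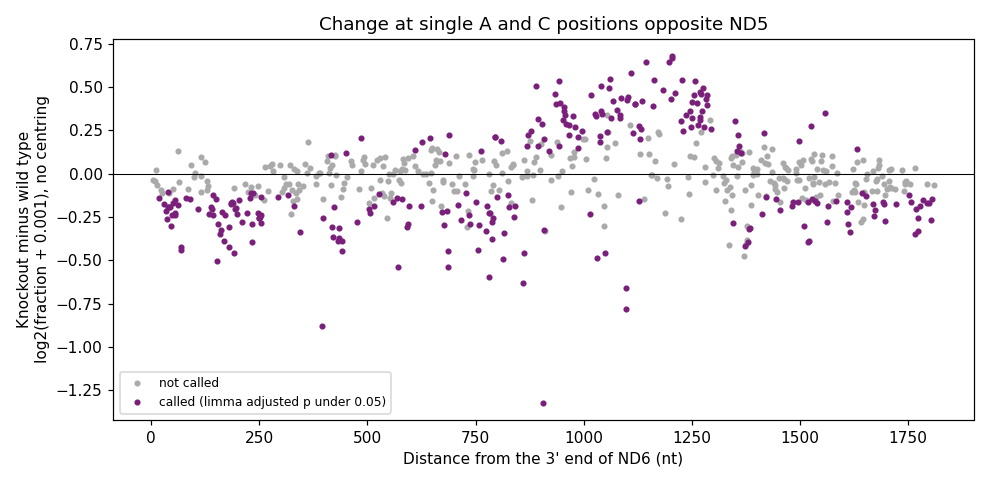
Knockout minus wild type difference of log2(fraction + 0.001), without centring, at each tested A or C position opposite ND5, by distance from the 3′ end of ND6 (nt); purple points were called by limma at an adjusted p under 0.05. Points next to ND6 lie mostly below 0 (3 of 155 called higher, 73 lower), and those in the third stretch mostly above it (66 of 189 higher, 18 lower). Over the file 46.2% were called higher and 14.3% lower, so higher calls in the third stretch were less frequent than over the file. With centring 0 positions of the third stretch were called higher and 149 lower.

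G and T positions moved down in most places. Without centring, 972 of 1159 were called lower in the knockout and 11 higher, on a background of 72.4% lower and 2.28% higher. The median change was −0.56 next to ND6, −0.997 in the second stretch, −1.32 in the third and −0.34 in the last, and −1.04 over the file. Of the 4 stretches, the third had a larger median fall than the file. Centring on the median G and T position, a shift of −1.23, turned most of these calls: 698 were then higher and 217 lower, with a background of 44% higher and 33.9% lower. By stretch, 262 of 336 were then higher and 8 lower next to ND6, 153 of 320 higher and 79 lower in the second stretch, 105 of 304 higher and 130 lower in the third, and 178 of 199 higher in the last. The second stretch lay near the file in both its share of higher calls and its uncentred median.

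Several single positions show how these levels look base by base. The context of each is 25 nt long, with the position in capitals, and the set holds the 2 that fell most, the strongest C and the A with the highest knockout value in the region.
C at 3327, 906 nt past ND6: aagtggagaaggCtacgattttttt
A at 2817, 396 nt past ND6: gggatgcgggggAaatgttgttagt
C at 3104, 683 nt past ND6: gctaatgctaggCtgccaatggtga
A at 3356, 935 nt past ND6: tcattttgtgtaAgggcgcagactg
The C at 3327 stood at 2.49% and 2.92% in wild type against 1.03% and 1.00% in the knockout, the largest fall among the region's A and C positions. Its change was −1.32 without centring (limma adjusted p = 0.000379) and −1.86 with it (limma adjusted p = 0.000308). The A at 2817 stood at 0.976% and 1.03% in wild type against 0.503% and 0.495% in the knockout, a change of −0.88 without centring (limma adjusted p = 0.00107). The neighbouring C positions 3518 and 3519, inside the stretch where most called A and C rose, also fell. They stood at 0.826% and 0.880% against 0.443% and 0.468%, and at 0.574% and 0.543% against 0.330% and 0.303%. These 4 positions were picked from the same libraries as the largest falls among called positions, so the gap between their groups is no further evidence.

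The C at 3104 had the highest level of any antisense base in the region, 8.53% in both wild-type libraries and 7.25% and 7.38% in the knockout. The A at 3356 was at 5.66% and 4.97% in wild type against 7.10% and 6.99% in the knockout, a rise of 0.40 without centring (limma adjusted p = 0.00783). With centring its change was −0.14 and was not called (limma adjusted p = 0.0818). The A at 3396, at 5.03% and 4.77% in wild type against 6.19% and 6.22% in the knockout, rose by 0.33 without centring and fell by 0.21 with it. Next to ND6 the highest knockout levels were at the A positions 2649 (6.15% and 6.34% in wild type against 5.59% and 5.71%) and 2684 (4.92% and 4.94% against 5.05% and 5.09%). The A at 2684 was not called without centring, where its change was 0.04 (limma adjusted p = 0.296). The strongest antisense bases were thus strong in both groups.

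The spread over all A and C positions was also similar between the groups. Over the region the A positions had a median of 2.74% in wild type against 2.83% in the knockout, and the C positions 1.48% and 1.25%. None was listed at 0 in any library. On the log2 scale the profile of A and C positions correlated between replicates with r = 0.993 in wild type against 0.999 in the knockout, and between the groups with r from 0.960 to 0.970 (n = 636 positions). For G and T the replicate values were 0.979 and 0.988, and those between the groups 0.435 to 0.490 (n = 1171). The profiles of the groups were thus more alike at A and C than at G and T. These correlations are across positions, which are not independent replicates.

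Sense reads can be followed further at the G and T positions whose heavy-strand partner has a high mismatch level, since a mark on ND5 mRNA would enter the light-strand file with sense reads. The following contexts, picked after the values were seen, are printed for the 3 retained positions whose partner had a mean fraction above 0.1 and for the only G or T that rose by more than 1 without centring.
T at 2860, partner 13709: taggcttccggcTgccaggcgttta
G at 3589, partner 12980: tgctaggaggagGcctagtagtggg
G at 3688, partner 12881: taaggcgaggatGaaaccgatatcg
G at 3115, partner 13454: gctgccaatggtGagggaggttgaa
The T at 2860 lies in the stretch next to ND6. It stood at 3.02% and 3.37% in wild type against 0.425% and 0.386% in the knockout, while its heavy-strand partner stood at 19.5% and 19.5% and at 10.7% and 10.4%. The light-strand level was 16.4% of its partner's in wild type against 3.84% in the knockout. The G at 3589 lies in the window of the lowest wild-type ratio. It stood at 8.91% and 9.65% in wild type against 0.356% and 0.436% in the knockout, with its partner at 20.1% and 19.3% and at 5.12% and 4.84%. Here the light-strand level was 47.1% of its partner's in wild type against 7.95% in the knockout. The wild-type share was thus larger at 3589 than at 2860, a comparison of 1 position with 1. The G at 3589 is itself part of the G and T level that gives its window the lowest ratio. In the knockout both light-strand levels lay below the mean of the same base in their stretch, so the knockout shares show no sense signal above that level and are not compared.

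The other pair behaved differently. The G at 3688 stood at 18.6% and 19.3% in wild type against 10.6% and 10.4% in the knockout, which is 94.4% and 89.2% of its partner's level. The G at 3115 stood at 1.14% and 1.18% in wild type against 6.30% and 6.26% in the knockout, a rise of 2.34 without centring (limma adjusted p = 2.15e-05). Its partner rose too, from 4.48% and 4.46% to 8.16% and 8.16%. In wild type the G at 3115 lay below the mean of G in its stretch in the light-strand file, 1.28% and 1.35%, so it was raised there in the knockout alone. Whether these 2 positions hold DMS marks or a difference in the sequence of the cells was not tested.

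The same relation was taken over whole stretches as the least-squares slope of light-strand G and T on heavy-strand A and C at the paired positions, a description with no test. Next to ND6 it was 5.79% and 6.26% in wild type against −3.71% and −3.18% in the knockout. Over the rest it was 30.1% and 32.5% in wild type against 14.6% and 14.8% in the knockout. A few positions weigh heavily on these slopes. With positions above 0.1 in the mean left out, which was chosen after the data were seen and removes 2860, 3589 and 3688, they were 3.69% and 3.59% against −4.52% and −3.48% next to ND6, and 17.2% and 18.8% against 3.43% and 4.08% over the rest. In the third stretch the slope was 51.0% and 55.3% in wild type against 36.4% and 35.9% in the knockout with the high positions in, and 47.1% in the knockout mean for G alone. Without them it was 30.3% and 34.1% in wild type and 3.1% in both knockout libraries, and in the second 19.1% and 21.2% against 10.5% and 10.9%. In the last stretch it was 1.28% and −0.37% in wild type against −7.32% and −5.60% in the knockout with G and T pooled. It was positive there for each base apart. For G alone it was 5.33% and 4.59% in wild type against 1.60% and 2.31% in the knockout. For T alone it was 8.73% and 5.56% against 2.17% and 3.57%. In wild type the slope was thus highest in the stretch where the ratio was lowest and lowest at both ends of the region, with and without the high positions.

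The heavy-strand files show the other side of the same positions. Opposite the 500 nt next to ND6, A and C there, read as ND5 mRNA, were at 3.89% and 3.85% in wild type. The knockout levels were 1.97% and 1.95%. Opposite the rest A and C were at 3.56% and 3.53% in wild type against 2.38% and 2.38% in the knockout. Heavy-strand G and T were at 1.08% and 1.04% against 1.40% and 1.45% next to ND6, and at 0.866% and 0.816% against 0.927% and 0.944% over the rest. These fractions too are shares of all reads. The balance of the strands and the DMS reactivity of ND5 mRNA cannot be told apart by them. The reverse slope, of heavy-strand G and T on light-strand A and C, was 14.8% and 14.9% in wild type against 34.6% and 35.9% in the knockout next to ND6. It was 15.2% and 15.7% against 25.5% and 25.6% in the second stretch, 24.1% and 24.8% against 24.3% and 24.0% in the third, and 6.37% and 5.88% against 7.48% and 7.59% in the last. This slope was larger in the knockout libraries in 3 of the stretches, by the widest margin next to ND6, and the groups overlapped in the third.

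The antisense profile was set against a fold predicted from sequence alone, the RNAplfold probability of each base being unpaired in the light-strand RNA. Spearman's rho over A and C was 0.31 and 0.29 in wild type against 0.36 and 0.35 in the knockout next to ND6 (n = 156), and 0.47 and 0.46 against 0.51 and 0.50 over the rest (n = 480). Part of it comes from the contrast between A and C, since predicted C were unpaired with a mean probability of 0.061 and A with 0.52 next to ND6. Within C alone rho was 0.57 and 0.53 in wild type against 0.54 and 0.54 in the knockout (n = 35), and within A alone 0.06 and 0.04 against 0.09 and 0.08 (n = 121). In the third stretch, where wild type had its highest level at G and T, rho over A and C was 0.57 and 0.59 in wild type against 0.54 and 0.54 in the knockout. The relation of antisense bases to the predicted fold thus differed little between the groups there.

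At G and T the prediction for the sense RNA was used. For G in the third stretch, the partner of C in ND5 mRNA, rho was 0.35 and 0.34 in wild type against 0.21 and 0.22 in the knockout (n = 164). In the last stretch it was −0.07 and −0.02 against −0.01 and −0.05 (n = 105). G in the third stretch thus followed the predicted fold of ND5 mRNA more closely in wild type, which was not particular to it. In the second stretch rho for G was 0.36 and 0.36 in wild type against 0.24 and 0.21 in the knockout. Next to ND6 it was 0.31 and 0.29 against 0.19 and 0.18. For T in the third stretch the order was the opposite, with rho of 0.16 and 0.13 in wild type against 0.47 and 0.47 in the knockout (n = 142). Over G and T together there it was 0.26 and 0.24 against 0.34 and 0.35.

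The letters beside a base went with its level. In the knockout, an A before a G averaged 3.13% in both libraries (n = 180), and an A before a C 2.37% in both (n = 33). A C that follows an A averaged 2.61% in both knockout libraries (n = 33), and one that follows another C 0.816% and 0.834% (n = 30). In wild type the same 4 averages were 3.14% and 3.09%, 2.27% and 2.21%, 2.62% and 2.55%, and 1.00% and 0.983%. The order of the contexts was thus the same in the 4 libraries.

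Deletions, taken as the difference between the deposited fractions with and without them, were rare. Over all bases they averaged 0.092% and 0.094% in wild type against 0.074% and 0.074% in the knockout next to ND6, and 0.096% and 0.099% against 0.066% and 0.065% over the rest.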

How the data were processed

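The authors deposited, for each library and strand, a table of mismatch fractions per mitochondrial position, with and without deletions added. Per the file headers these are fractions, and no read counts were used here, so the depth is unknown and no counting interval is given. Per the submitters' processing notes, cutadapt and Bowtie2 were used; versions, genome build and annotation are not given in the sources used here. Gene ends come from the RefSeq table (GRCh38.p14), whose numbering was lowered by 1 past a placeholder base; ND5 and ND6 then gave open reading frames, and did not at a neighbouring shift. The strands were paired by position. Positions with a mean fraction above 0.3 were left out. Tests used limma 3.58.1 in R 4.3.3 on log2(fraction + 0.001), at a mean of at least 0.002, or on window ratios with at least 8 A or C and 8 G or T positions, adjusted by Benjamini-Hochberg over the light-strand file; the script was tested on simulated data. Single values were compared by exact permutation over libraries. Folds came from RNAplfold (ViennaRNA 2.7.2; window 240, span 160). Libraries labelled as replicates may share sources, and p-values measure only the spread between them. The region, stretches and lists were chosen with earlier results of these data known. Named positions were the 4 called A or C positions that fell most (none rose with centring) and the 4 highest in the knockout next to ND6 and in the rest; named windows were those with the highest and lowest wild-type ratio and the largest and smallest change. Alternatives covered stretch length, bases used, limits, pseudocount, centring, window length, a replicate block and leaving out each library. Libraries with the same replicate number deviated together with r = 0.045 at A and C and −0.030 at G and T, so the numbers were not taken as pairs.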

Additional observations from a re-analysis of the deposited data

How the results depend on the processing

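The higher ratio next to ND6 than in the rest held in wild type (0.79) under each alternative but 1: 1.04 with a near stretch of 250 nt, 0.67 with 750 nt, 0.47 for A over T, 1.01 for C over G, 0.59 with medians, 0.96 with no upper limit, and −0.12 against the last 312 nt alone, an alternative chosen after seeing the data. In the knockout (0.14) it was 0.29, 0.069, −0.092 for A over T, 0.31 for C over G, 0.081 with medians, 0.55 with no upper limit and 0.043 against the last 312 nt, and 0.11 up to 0.1, 0.16 with deletions added, 0.12 with a lower limit of 0.002 and 0.11 against the next 500 nt. The difference between the groups (−0.65) reversed to 0.17 against the last 312 nt and was −0.42 with no upper limit. The change next to ND6 (0.49) was 0.22 for A over T and 0.31 over 250 nt, and that of the rest (1.14) was 0.32 for the last 312 nt. Leaving out 1 library gave 0.71 to 0.86 in wild type, 0.13 to 0.15 in the knockout, −0.72 to −0.57 for their difference, 0.46 to 0.51 for the change next to ND6 and 1.09 to 1.18 for the rest. Called A and C positions went from 585 to 278 of 631 without centring, and over the file from 4179 to 3357 of 5544. Called G and T positions went from 915 of 1159 to 282 of 322 with a lower limit of 0.01. Over the file they went from 7598 of 9757 to 4360 of 5275. Called windows went from 34 of 36 to 17 of 18 at 100 nt, and over the file from 271 of 329 to 140 of 164. Windows called lower numbered 2 for A over T and 1 with a pseudocount of 0.01, against 16 of 328 and 20 of 329 over the file. The slope next to ND6 in the knockout was 3.24% for G only. Without centring the changes at 2684 and 3396 were 0.039 and 0.33. With the replicate block the contrast stayed at −0.65, and 582 A or C positions, 846 G or T positions and 34 windows were called. Over the file the block gave 4200 of 5544, 7413 of 9757 and 274 of 329. The cause of these moves was not tested. With 2 libraries a group and unknown depth, small differences at single positions are the least certain.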
